A study of Homo sapiens with 112 samples.

Results

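The genes of fatty acid synthesis, elongation and desaturation were followed through androgen stimulation and its blockade in a pair of prostate cancer cell lines. They were the 10 rows of the expression table whose symbol was FASN, ACACA, SCD, ELOVL1, ELOVL2, ELOVL5, ELOVL6, ELOVL7, FADS1 or FADS2, out of 58684 rows in all, and all 10 passed the filter on low counts in both lines. VCaP and LAPC4 are established, androgen-responsive human prostate cancer lines. All cells were starved for 2 days in medium with 10% charcoal-stripped fetal calf serum, which is depleted of steroids, and were then given DMSO (the vehicle control), the synthetic androgen R1881 at 1 nM, or R1881 together with the androgen receptor antagonist darolutamide at 500 nM or at 2 µM. RNA was taken after 8 or 22 h. In VCaP the 8 and 22 h groups held 10 and 8 DMSO libraries, 10 and 9 R1881 libraries, 4 and 4 libraries with 500 nM darolutamide, and 5 and 5 with 2 µM. In LAPC4 they held 10 and 7 DMSO libraries, 10 and 10 R1881 libraries, and 5 at each dose and time of darolutamide. Each condition is thus a single line in culture, and the LAPC4 and VCaP comparisons describe these lines only.

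Fatty acid synthesis starts when acetyl-CoA carboxylase (ACACA) makes malonyl-CoA, from which fatty acid synthase (FASN) builds palmitate. The elongases (ELOVL genes) add carbon pairs in the endoplasmic reticulum, each with its own preferred chain: ELOVL6 takes palmitate towards stearate, ELOVL1 and ELOVL7 act on saturated and longer chains, and ELOVL2 and ELOVL5 act on polyunsaturated chains. The desaturases insert double bonds: SCD makes monounsaturated oleate and palmitoleate, and FADS2 and FADS1 perform successive steps on polyunsaturated chains. Many of these genes are known targets of the SREBP transcription factors, and lipid synthesis is a known androgen-responsive programme of prostate cells.

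The table held read counts per gene, from 12188455 to 25201678 in total per library. KLK3 and FKBP5, classical androgen receptor targets, rose with R1881 in both lines at both times, by 1.53-fold (FKBP5 in LAPC4 at 8 h) up to 45.1-fold (FKBP5 in VCaP at 22 h). ERG, which a gene fusion activates in VCaP, had at least 1578 reads in every VCaP library and at most 1 in LAPC4. The epithelial keratins KRT8 and KRT18 and the prostate factor HOXB13 had at least 2222 reads in every library, while CD3E, COL1A2 and ADIPOQ, markers of T cells, fibroblasts and fat cells, had at most 3. Of the other 7 markers of such cells, LUM reached 29.1 CPM (counts scaled to a common library size) in VCaP and the remaining 6 stayed at or below 6.55 CPM in every library. The genes lie on GRCh38 as follows, by the GENCODE 44 annotation. ELOVL1 is at chr1:43363398-43368074 (minus strand), ELOVL6 at chr4:110045846-110199199 (minus), ELOVL7 at chr5:60751791-60844274 (minus), ELOVL2 at chr6:10980759-11044305 (minus) and ELOVL5 at chr6:53267398-53349179 (minus). SCD is at chr10:100347233-100364826 (plus), ACACA at chr17:37084992-37406836 (minus) and FASN at chr17:82078338-82098294 (minus). FADS2 (chr11:61792980-61867354, plus) and FADS1 (chr11:61799627-61829318, minus) overlap on opposite strands. The study's methods name a stranded library kit, but the strand setting of the counting is not given in the sources used here. Reads from the overlap may thus have been left out or given to the other gene. SCDP1, a processed copy of SCD on another chromosome, was listed with 2.09% to 3.23% as many reads as SCD in every VCaP library and 2.24% to 2.84% in LAPC4. Reads of SCD and of this copy can be split between the rows.

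The promoters below are the 250 bases before the start of 2 members with unlike time courses: SCD, which was not raised in VCaP at 8 h but was at 22 h, and ELOVL7, which rose at both times and in both lines. They are given 5′ to 3′ on the strand of the gene from RefSeq (GRCh38.p14), SCD at chr10:100346983-100347232 and ELOVL7 at chr5:60844270-60844519, and capitals mark CCAAT, the box bound by NF-Y.
SCD: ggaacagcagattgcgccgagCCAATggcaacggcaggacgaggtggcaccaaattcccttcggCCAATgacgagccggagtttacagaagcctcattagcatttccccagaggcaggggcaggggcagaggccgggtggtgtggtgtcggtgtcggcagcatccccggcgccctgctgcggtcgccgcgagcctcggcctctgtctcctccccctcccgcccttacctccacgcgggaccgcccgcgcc
ELOVL7: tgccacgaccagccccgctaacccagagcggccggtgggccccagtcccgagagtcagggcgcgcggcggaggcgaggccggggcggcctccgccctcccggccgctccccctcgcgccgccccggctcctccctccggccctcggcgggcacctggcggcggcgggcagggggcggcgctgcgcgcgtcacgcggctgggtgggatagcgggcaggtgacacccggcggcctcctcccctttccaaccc
CCAAT stood 2 times in the SCD window, beginning 229 and 186 bases before the start, and was not in the ELOVL7 window. On either strand it was in 5 of the 12 windows of the 9 members matched in the RefSeq table (FASN was not matched), those of SCD, ELOVL1, ELOVL5 and ACACA, and in 32.0% of all 35116 windows of this length. The E-box CACGTG was in 1 of the 12 (ELOVL5) against 6.34% of all, and the androgen half-site AGAACA in 0 of the 12 against 12.4%. These matches describe the letters of these windows and nothing more.

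At the outset, in DMSO, the lines differed for every member. In a joint fit of both lines, 10 of 10 members differed between VCaP and LAPC4 at 8 h (87.9% of all genes tested in both lines did) and 10 of 10 at 22 h (85.5%), 4 of them higher in VCaP and 6 higher in LAPC4 at each time. The largest gap was that of FADS2, with 18.5, 22.7 and 24.4 CPM as the lowest, median and highest of 10 VCaP libraries at 8 h and 901, 976 and 1171 CPM in LAPC4. Its log2 difference, VCaP minus LAPC4, was -5.17 ± 0.05 (SE; edgeR quasi-likelihood test, adjusted p = 1.91e-100). CPM were scaled within each line, and the tests between lines rest on the joint fit. SCD (-2.54), FASN (-2.49), ELOVL1 (-1.71) and ELOVL5 (-1.28) were also lower in VCaP at 8 h on this log2 scale, whereas ELOVL2 was higher by 2.46, FADS1 by 0.80, ELOVL7 by 0.55 and ACACA by 0.54. ELOVL6 differed by -0.14 at 8 h (adjusted p = 0.0146), a call that was lost with DESeq2 (adjusted p = 0.0507) and with control replicates 1 to 5 (adjusted p = 0.130).

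Set per kilobase of merged exons, the SCD level was the highest of the 10 in DMSO in both lines, at 70.1 ± 3.06 CPM per kb (SD, n = 10) in VCaP at 8 h and 512 ± 21.4 (SD, n = 10) in LAPC4. This order depends on the merged exon lengths used, 5.24 kb for SCD and 13.02 kb for ACACA. By mean CPM alone ACACA (547) exceeded SCD (368) in VCaP at 8 h. In VCaP the 8 h order continued with ACACA (42.0 CPM per kb), FASN (30.0), ELOVL5 (30.0), ELOVL2 (21.3), ELOVL7 (15.6), ELOVL1 (15.1), FADS1 (8.09), ELOVL6 (3.18) and FADS2 (2.11). Neighbours in this order whose libraries overlapped were ACACA and FASN, FASN and ELOVL5, and ELOVL7 and ELOVL1. In LAPC4 FADS2 followed FASN (212 CPM per kb), at 95.8 CPM per kb, overlapping it and ELOVL5 (91.4), and FADS1, ELOVL2 and ELOVL6 closed the order at 5.85, 4.86 and 4.40.

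The first comparison asked what androgen does to these genes in VCaP. After 22 h of R1881 all 10 members had risen, where 37.4% of all genes tested rose and 77.4% changed in either direction. The RNA was extracted in bulk, so that a change in the cells present and a change in RNA per cell cannot be told apart, and the p-values measure the spread between these libraries, whose separate origin the labels do not give. The study's methods state 5 biological replicates per condition, whereas the groups hold 4 to 10 libraries, and whether replicates 6 and above came from another experiment is not labelled. The median log2 change of the members was 1.66, against -0.03 over all genes tested. The desaturases and FASN rose the most, about 4-fold to 8-fold, and ELOVL2 the least. FADS2, the entry desaturase of polyunsaturated synthesis, went from 21.0, 23.1 and 26.1 CPM (lowest, median and highest of 8 DMSO libraries) to 158, 174 and 196 CPM (9 R1881 libraries), a 7.62-fold rise (log2 2.93 ± 0.05 SE, adjusted p = 1.70e-47). The highest DMSO library was far below the lowest R1881 library. SCD went from 458, 476 and 513 CPM to 2885, 3105 and 3436 CPM, again without overlap (6.48-fold, log2 2.70 ± 0.04, adjusted p = 2.57e-51). FADS1 libraries lay at 82.2, 90.4 and 92.6 CPM in DMSO and at 345, 372 and 397 CPM in R1881 (4.15-fold, log2 2.05 ± 0.03, adjusted p = 4.85e-48).

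Of the committing enzymes, ACACA went from 728, 742 and 772 CPM to 1763, 1882 and 2055 CPM (2.53-fold, log2 1.34 ± 0.03, adjusted p = 1.05e-39). FASN rose from 125, 252 and 384 CPM to 848, 1617 and 2488 CPM (6.58-fold, log2 2.72 ± 0.26, adjusted p = 8.45e-14). The FASN groups did not overlap, yet its SE was at least 4 times that of every other member. Among the elongases ELOVL7 rose 3.52-fold (log2 1.81 ± 0.05), ELOVL6 2.84-fold (1.51 ± 0.06), ELOVL5 2.28-fold (1.19 ± 0.04), ELOVL1 1.73-fold (0.79 ± 0.04) and ELOVL2 1.26-fold (0.34 ± 0.04). Only for ELOVL2 did the groups touch, with 88.4 to 102 CPM in DMSO and 101 to 132 CPM in R1881. All 10 calls kept their direction and their side of the threshold under every alternative run for this comparison, including upper-quartile scaling, which moved the median log2 change of all genes from -0.03 to -0.15.

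**Figure D1:**
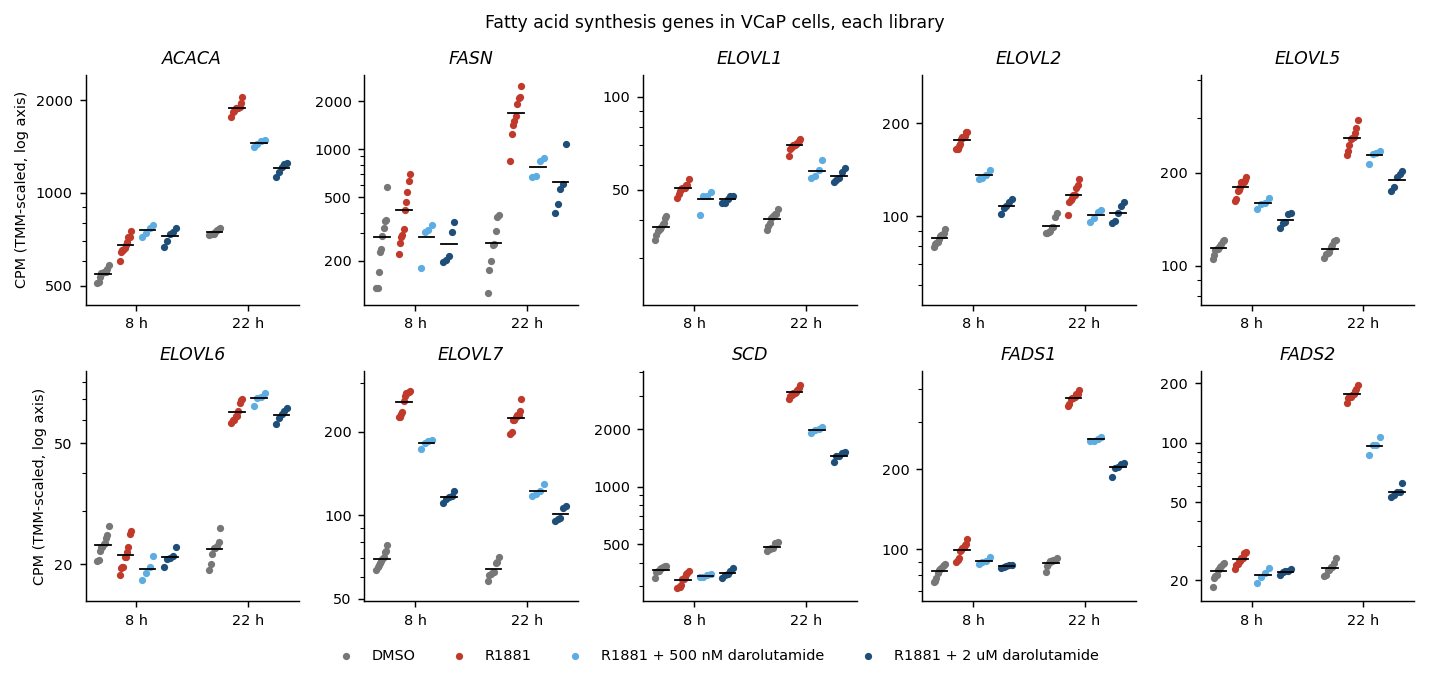
Levels of the 10 genes in VCaP in TMM-scaled CPM (vertical, log axis, a scale of its own in each panel) for 4 treatments at 8 and 22 h; each point is a library and each line a group mean. At 22 h the R1881 libraries lie above the DMSO libraries for all members but ELOVL2, where the edges of the groups touch, and at 8 h SCD and ELOVL6 show no rise.

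At 8 h the same treatment gave a different picture. In VCaP 9 of 10 members differed from DMSO (66.9% of all genes tested), 8 of them higher (32.8% of all genes rose) and 1 lower, and the members' median log2 change was 0.36 against -0.03 over all genes. ELOVL7 had already risen from 63.7, 69.1 and 78.3 CPM in DMSO to 226, 263 and 281 CPM, a 3.67-fold change (log2 1.88 ± 0.05, adjusted p = 4.43e-40). ELOVL2 went from 79.4, 85.5 and 91.0 CPM to 165, 180 and 187 CPM, 2.08-fold (log2 1.06 ± 0.04, adjusted p = 2.73e-33). ELOVL5 rose 1.58-fold (log2 0.66 ± 0.04), ELOVL1 1.33-fold (0.41 ± 0.03), ACACA 1.24-fold (0.31 ± 0.03), FADS1 1.20-fold (0.26 ± 0.03) and FADS2 1.15-fold (0.20 ± 0.05). For the elongases ELOVL1, ELOVL2, ELOVL5 and ELOVL7 and for ACACA and FADS1 the DMSO and R1881 libraries did not overlap.

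SCD went the other way. Its libraries held 332, 372 and 384 CPM in DMSO and 296, 330 and 359 CPM in R1881, a fall by 0.18 on the log2 scale (SE 0.03, adjusted p = 5.07e-06), and the groups overlapped. ELOVL6 had 20.5, 23.0 and 26.7 CPM in DMSO and 18.4, 21.1 and 25.7 CPM in R1881 (log2 change -0.11 ± 0.05, adjusted p = 0.0663). The ELOVL6 call was gained, as a fall, with DESeq2 (-0.13, adjusted p = 0.0417), with upper-quartile scaling (-0.20, adjusted p = 0.000691) and with the GC covariate described below (-0.13, adjusted p = 0.00431). The SCD fall held in each of these.

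The difference between the times was tested directly, as the R1881 effect at 22 h minus that at 8 h. In VCaP 9 of 10 members differed (60.4% of all genes tested), 8 with a larger effect at 22 h. SCD gained 2.87 ± 0.05 on the log2 scale (adjusted p = 3.07e-45), FADS2 2.73 ± 0.07, FASN 2.16 ± 0.34, FADS1 1.79 ± 0.05, ELOVL6 1.62 ± 0.08 and ACACA 1.03 ± 0.04. For ELOVL5 the gain was 0.53 ± 0.05 and for ELOVL1 0.38 ± 0.05. The R1881 effect on ELOVL2, by contrast, dropped by 0.72 between 8 and 22 h (SE 0.05, adjusted p = 8.15e-18), and that on ELOVL7 changed by -0.06 ± 0.07 (adjusted p = 0.440).

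**Figure D2:**
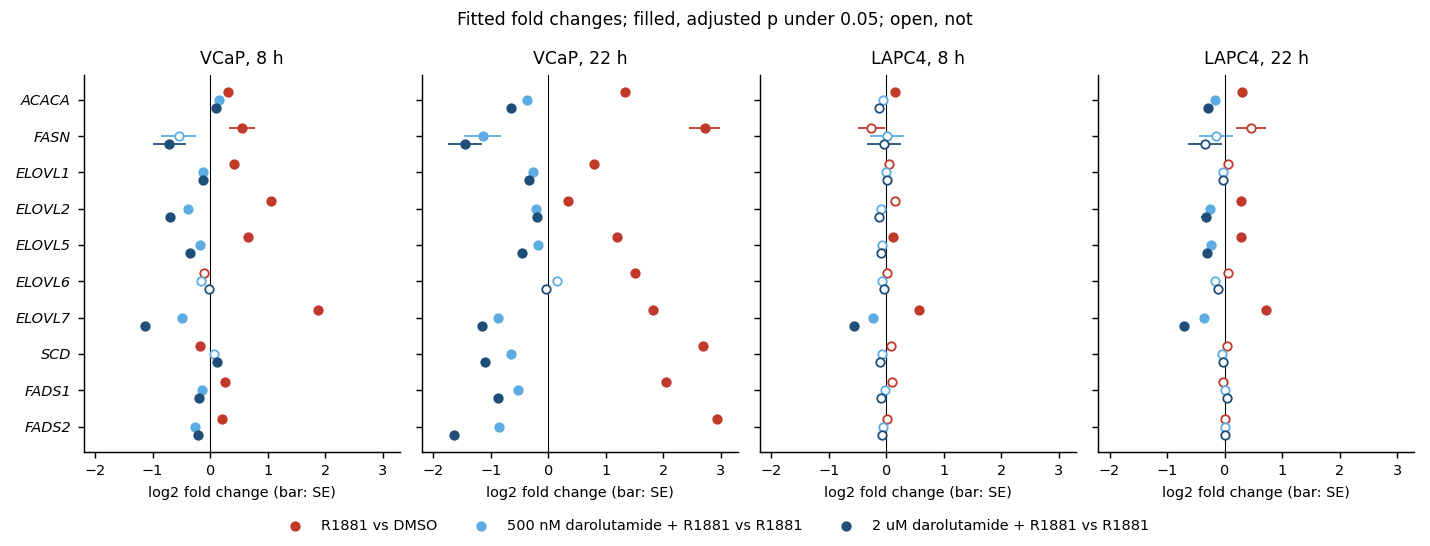
Fitted log2 fold changes with SE (horizontal) of the 10 genes in 4 panels by line and time, for R1881 against DMSO and for R1881 with 500 nM or 2 µM darolutamide against R1881. In VCaP the R1881 changes of SCD, FADS2, FASN and FADS1 are near 0 or under 1 at 8 h and over 2 at 22 h, and in LAPC4 ELOVL7 has the largest change among the filled points, those past the threshold.

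FASN needs its own account, since the spread of its libraries moved with their base composition. Its merged exons hold 65.2% G and C, more than 97.7% of the genes tested in VCaP and 97.9% in LAPC4. For each library the slope of log2 CPM on the GC fraction was fitted over genes, and it ran from -10.3 to -4.85 in VCaP and from -8.20 to -3.15 in LAPC4. Where the slope was steepest, GC-rich genes stood lowest against the others. Since the slope is drawn from the expression values themselves, library differences and treatment effects in it cannot be told apart. Within groups the log2 CPM of FASN had an SD of 0.54 in VCaP and 0.56 in LAPC4, and of 0.11 and 0.12 once the slope was removed, while no other member had a within-group SD over 0.14. The smaller SD of every other member fell too, from 0.12 to 0.052 for FADS2 in LAPC4 and from 0.071 to 0.068 for ELOVL1 in VCaP. The mean slope also differed between groups, from -7.75 in DMSO to -6.82 in R1881 at 22 h in VCaP and from -7.02 to -7.43 at 8 h. With the slope as a covariate the FASN rise in VCaP was 2.35 ± 0.05 (log2) at 22 h and 0.76 ± 0.04 at 8 h (adjusted p = 1.21e-25), in a fit that called 80.5% of all genes at 22 h and 72.6% at 8 h. Without it the 8 h rise was 0.56 ± 0.23 (adjusted p = 0.0250), with DMSO libraries at 134, 260 and 576 CPM and R1881 libraries at 220, 366 and 702 CPM, and that call was lost with control replicates 6 and above (0.34, adjusted p = 0.314) and with upper-quartile scaling (0.48, adjusted p = 0.0555). The part of the slope in the FASN differences was measured only through these fits.

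**Figure D3:**
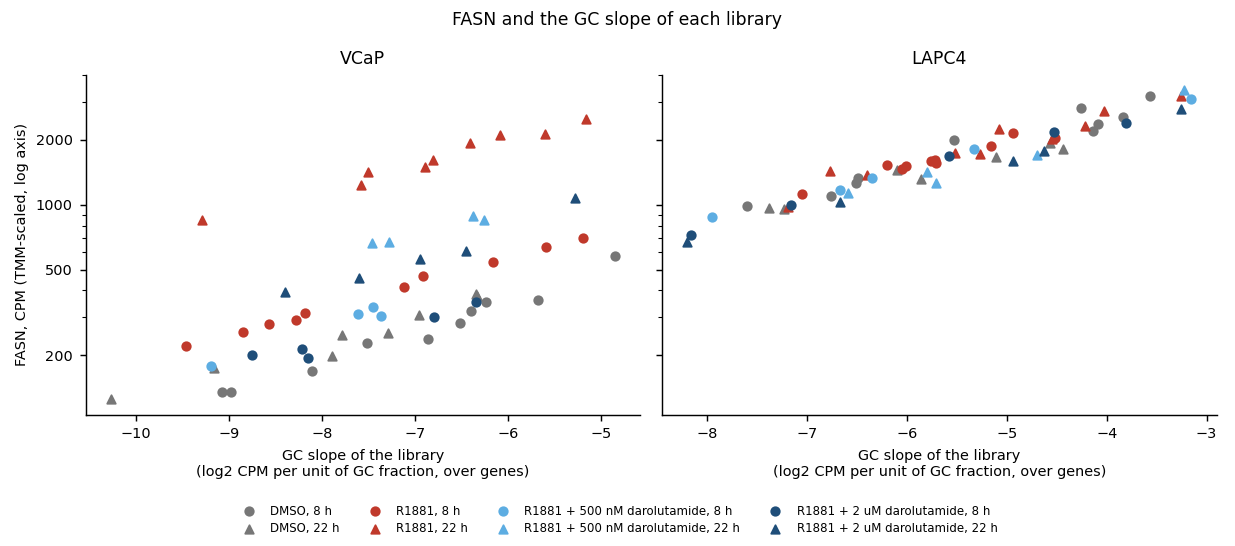
FASN in each library, in TMM-scaled CPM (vertical, log axis), against the slope of log2 CPM on GC fraction over the genes of that library (horizontal), for VCaP and LAPC4; colours give treatments and symbols give times. FASN climbs with the slope in both lines, the VCaP 22 h R1881 libraries lie on a band above the DMSO libraries, and the LAPC4 groups share 1 band.

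Darolutamide was then set against R1881 alone, to ask how far the antagonist held back these changes. In VCaP at 22 h 9 of 10 members were lower with 2 µM darolutamide than with R1881 alone, where 30.8% of all genes fell and 66.9% changed, and the members' median log2 difference was -0.76 against 0.06 over all genes. With 500 nM the count was also 9, all lower (53.0% of all genes changed in either direction). FADS2 stood at 97.1, 86.3, 96.7 and 106 CPM in the 4 libraries with 500 nM and at 62.1, 56.0, 55.9, 54.4 and 53.1 CPM in the 5 with 2 µM. The doses did not overlap with each other, with R1881 or with DMSO, and the 2 µM level was lower than R1881 by 1.65 ± 0.06 on the log2 scale (adjusted p = 7.98e-33). SCD stood at 1921, 1990, 2001 and 2057 CPM with 500 nM and at 1454, 1458, 1341, 1531 and 1499 CPM with 2 µM, and FADS1 at 255, 264, 256 and 261 CPM and at 203, 210, 187, 205 and 211 CPM. Both formed 4 separate steps from DMSO over 2 µM and 500 nM to R1881, and so did ACACA, with 1408, 1475, 1446 and 1492 CPM at 500 nM and 1214, 1168, 1126, 1254 and 1247 CPM at 2 µM. FASN held 846, 666, 674 and 885 CPM at 500 nM and 607, 562, 1078, 455 and 395 CPM at 2 µM, and 1 library at each dose (885 and 1078 CPM) lay above the lowest R1881 library (848 CPM). Its difference from R1881 at 2 µM was -1.45 ± 0.30 (adjusted p = 2.14e-05), and -1.43 ± 0.05 with the GC slope as covariate.

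ELOVL6 was the exception. Its level was 73.6, 71.1, 70.7 and 66.7 CPM with 500 nM and 60.5, 64.1, 57.9, 65.7 and 62.8 CPM with 2 µM, against 58.6, 61.8 and 70.2 CPM in R1881 and 19.2, 22.6 and 26.3 CPM in DMSO. The drug groups overlapped R1881 and stood clear of DMSO. The difference from R1881 was -0.03 ± 0.06 at 2 µM (adjusted p = 0.631) and 0.15 ± 0.07 at 500 nM (adjusted p = 0.0559), and the latter passed as a rise with the GC slope as covariate (0.15, adjusted p = 0.00387) and with upper-quartile scaling (0.17, adjusted p = 0.0266).

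Expressed as the share of the R1881 change that the drug took back (0% at the R1881 mean, 100% at the DMSO mean, in log2 CPM), 2 µM darolutamide at 22 h reversed 63.6% ± 4.58 (SD, n = 5) of the ELOVL7 change, 56.2% ± 2.95 for FADS2, 48.9% ± 4.92 for ACACA, 42.4% ± 3.36 for FADS1, 41.1% ± 2.69 for SCD and 37.8% ± 7.60 for ELOVL5. ELOVL1 reached 41.6% ± 8.32, FASN 54.0% ± 20.3 and ELOVL2 57.0% ± 28.6, with wide ranges, and ELOVL6 2.23% ± 4.76. With 500 nM the shares were 48.2% ± 3.34 (SD, n = 4) for ELOVL7, 29.7% ± 4.23 for FADS2, 28.1% ± 2.73 for ACACA, 25.3% ± 1.13 for FADS1, 24.3% ± 1.5 for SCD, 15.2% ± 5.11 for ELOVL5 and -9.81% ± 3.85 for ELOVL6. FASN reached 39.8% ± 7.83 and ELOVL1 34.97% ± 11.2 at this dose, and ELOVL2 63.5% ± 17.3, which is above its mean at 2 µM and within the spread of both. No member's mean returned to the DMSO mean at 22 h. All 10 members were still above DMSO with 2 µM (59.0% of all genes differed in either direction) and with 500 nM (62.7%). At 2 µM SCD stood 3.01-fold above DMSO, ELOVL6 2.77-fold and FADS2 2.44-fold. For ELOVL2 the remaining rise was small, 1.11-fold at 2 µM, and that call was lost without 2 µM replicate 5 (log2 0.10, adjusted p = 0.0516), with upper-quartile scaling (0.06, adjusted p = 0.258) and with control replicates 6 and above (0.10, adjusted p = 0.125). It was also lost with the replicate number as a block in the fit, the replicate block (0.16, adjusted p = 0.0517). At 500 nM it was lost without replicate 2, 3 or 4 in turn (log2 0.08 to 0.11), with upper-quartile scaling (0.03, adjusted p = 0.629), with control replicates 6 and above (0.08, adjusted p = 0.266), with DESeq2 (adjusted p = 0.0532) and with both other filters on low counts (adjusted p = 0.0778 and 0.121). With the replicate block it was lost as well (0.14, adjusted p = 0.0928). The doses themselves differed for 6 of 10 members (20.2% of all genes), all lower with 2 µM: FADS2 by -0.78 ± 0.06 on the log2 scale, SCD by -0.45 ± 0.05, FADS1 by -0.35 ± 0.04, ELOVL7 by -0.28 ± 0.07, ACACA by -0.28 ± 0.04 and ELOVL5 by -0.27 ± 0.05.

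At 8 h in VCaP 2 µM darolutamide differed from R1881 alone for 9 of 10 members (52.1% of all genes), of which 7 were lower (26.2% of all genes fell) and 2 higher. ELOVL7 held 110.5, 117, 115, 122 and 117 CPM with 2 µM and 187, 182, 173 and 185 CPM with 500 nM, between DMSO and R1881 and overlapping neither, and its difference from R1881 at 2 µM was -1.14 ± 0.06 (log2, adjusted p = 8.04e-25). ELOVL2 held 102, 112, 108, 114 and 107 CPM with 2 µM and 141, 137, 132 and 133 CPM with 500 nM, again between the controls without overlap (-0.70 ± 0.04 at 2 µM, adjusted p = 1.80e-20). The reversal at 2 µM was 60.5% ± 2.86 (SD, n = 5) for ELOVL7, 66.6% ± 5.87 for ELOVL2 and 54.1% ± 10.3 for ELOVL5. ELOVL1 stood lower, at 28.4% ± 8.77, and ACACA at -30.7% ± 26.7, moving further from DMSO. For FADS2 it was 100% ± 19.7, for FASN 108% ± 64.3, and for the fall of SCD 65.9% ± 36.9. FADS1 reached 74.0% ± 6.38, or 90.9% against control replicates 1 to 5. The FADS2 call (-0.21) was lost with upper-quartile scaling (-0.13, adjusted p = 0.0517) and with the replicate block (-0.16, adjusted p = 0.0847). The 2 higher members were ACACA and SCD.

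ACACA at 8 h stood at 768, 744, 789 and 721 CPM with 500 nM and at 696, 745, 667, 768 and 735 CPM with 2 µM, against 600, 671 and 752 CPM in R1881 and 511, 551 and 582 CPM in DMSO. Every drug library exceeded every DMSO library, and the drug and R1881 libraries overlapped. ACACA was higher than in R1881 alone by 0.16 ± 0.04 with 500 nM (log2, adjusted p = 0.00118) and by 0.09 ± 0.04 with 2 µM (adjusted p = 0.0293). The latter call was lost without 2 µM replicate 2, 4 or 5 (log2 0.07 to 0.09, adjusted p from 0.0681 to 0.138) and without the filter on low counts (adjusted p = 0.0742). SCD was higher than in R1881 alone by 0.12 ± 0.04 with 2 µM (adjusted p = 0.0137), at 345, 375, 333, 362 and 346 CPM, a call lost without 2 µM replicate 2 (0.09, adjusted p = 0.0726). FASN was lower by 0.71 ± 0.28 with 2 µM (adjusted p = 0.0321), at 301, 200, 351, 215 and 195 CPM. That call was lost without 2 µM replicate 2, 4 or 5 (adjusted p from 0.0749 to 0.0877), with control replicates 1 to 5 (adjusted p = 0.0999) and with upper-quartile scaling (adjusted p = 0.0542), and the difference was -0.55 ± 0.05 with the GC slope as covariate (adjusted p = 1.20e-14). ELOVL1 was lower by 0.12 ± 0.04 with 2 µM (adjusted p = 0.0106). That call was lost with upper-quartile scaling (adjusted p = 0.364), with control replicates 6 and above (adjusted p = 0.133) and with the replicate block (adjusted p = 0.0853).

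With 500 nM at 8 h 7 of 10 members differed from R1881 (30.6% of all genes), 6 lower and ACACA higher. ELOVL1 was among the 6 (log2 -0.12, adjusted p = 0.0318), and its call was lost without 500 nM replicate 1 (adjusted p = 0.314), with upper-quartile scaling (0.216), with control replicates 6 and above (0.159) and in a fit of the compared groups only (0.178). The FADS1 call (log2 -0.13, adjusted p = 0.00937) was lost in the latter 3 settings too (adjusted p = 0.0982, 0.0604 and 0.0632). The replicate block lost the calls of ELOVL1 (adjusted p = 0.425), FADS1 (0.149), ELOVL5 (0.112) and FADS2 (0.17) at this dose. The doses differed for 3 of 10 members (17.6% of all genes), ELOVL7 by -0.64 ± 0.07 (2 µM minus 500 nM, log2), ELOVL2 by -0.32 ± 0.05 and ELOVL5 by -0.18 ± 0.05, the last lost without 500 nM replicate 1 (-0.16, adjusted p = 0.0585) and without the filter on low counts (-0.17, adjusted p = 0.0571). The replicate block lost that ELOVL5 call too (-0.15, adjusted p = 0.0582). Against DMSO, 5 of 10 members were still higher with 2 µM (27.5% of all genes differed), ELOVL7 by 1.67-fold, ACACA by 1.32-fold, ELOVL2 by 1.28-fold and ELOVL1 and ELOVL5 by 1.23-fold each. With 500 nM 8 of 10 differed from DMSO (44.9% of all genes), 6 higher, and SCD and ELOVL6 lower by 0.11 and 0.26 on the log2 scale. The SCD call at this dose was lost without any 1 of the 4 libraries (adjusted p from 0.0536 to 0.110), and that of FADS1 (log2 0.13, adjusted p = 0.00833) with upper-quartile scaling (0.087), with control replicates 1 to 5 (0.206), without the filter on low counts (0.0745) and in a fit of the compared groups only (0.0904). The replicate block lost that FADS1 call too (0.08, adjusted p = 0.0801).

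The balance of elongase transcripts shifted with these changes. Each elongase was taken as a share of the summed CPM per kb of ELOVL1, ELOVL2, ELOVL5, ELOVL6 and ELOVL7, described here without a test. These are shares of RNA, not of enzyme, and they depend on the exon lengths used: 72 of 80 moved when length was left out. In VCaP ELOVL7 made up 18.3% ± 0.68 (SD, n = 10) in DMSO at 8 h and 33.3% ± 1.26 (n = 10) in R1881, with 29.6% ± 0.50 (n = 4) at 500 nM and 23.4% ± 0.54 (n = 5) at 2 µM, and no libraries of these groups overlapped. The share of ELOVL5 fell over the same step from 35.2% ± 0.87 to 27.4% ± 0.58, although its level rose. At 22 h the ELOVL7 share was 16.5% ± 0.71 in DMSO (n = 8) and 27.3% ± 0.65 in R1881 (n = 9). The ELOVL2 share went from 26.9% ± 0.64 to 15.97% ± 0.44, although its level rose slightly. ELOVL6 held 3.55% ± 0.29 in DMSO, 4.76% ± 0.32 in R1881, and 6.69% ± 0.47 and 6.64% ± 0.17 with 500 nM and 2 µM, so that its share was largest in the drug groups, which did not overlap with R1881. In LAPC4 ELOVL5 and ELOVL1 made up most of the sum, 51.8% ± 1.46 and 35.3% ± 2.06 in DMSO at 8 h (n = 10), and ELOVL7 went from 7.59% ± 0.60 to 10.3% ± 0.35 (n = 10) with R1881.

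**Figure D4:**
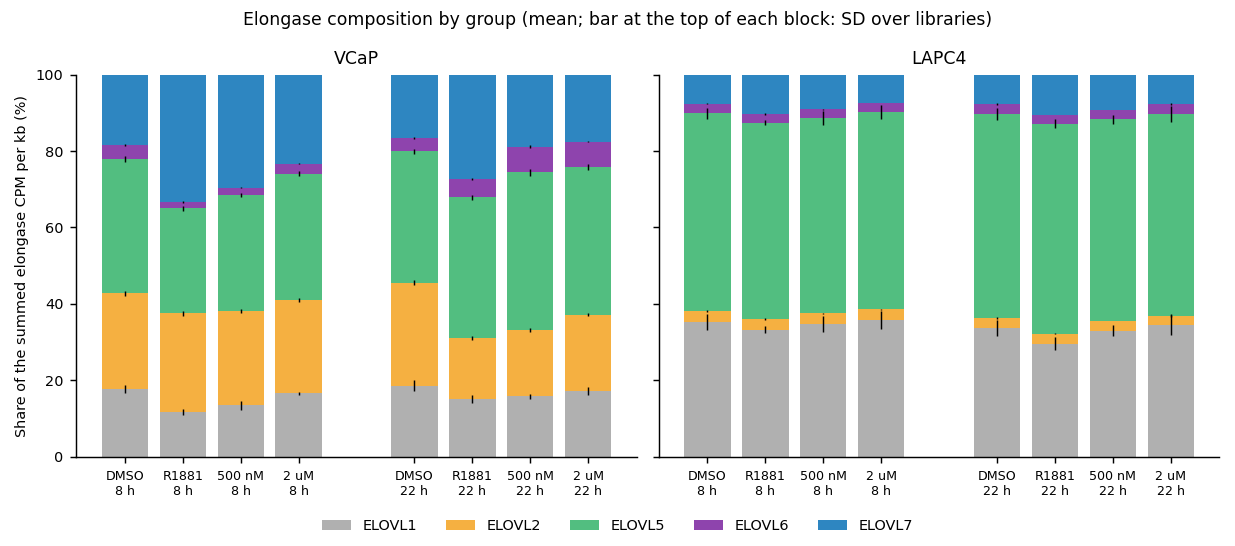
Mean share of each of 5 elongases in their summed CPM per kb of exons (vertical, percent) for the 8 groups of VCaP and of LAPC4; the bar at the top of a block is the SD over libraries. The ELOVL7 block widens from DMSO to R1881 in both lines and narrows from 500 nM to 2 µM darolutamide, and ELOVL2 is a wide block in VCaP and a thin one in LAPC4.

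In LAPC4 R1881 moved fewer members and by less. At 22 h 4 of 10 rose, where 6.83% of all genes rose and 13.3% changed, and at 8 h 3 of 10 rose, where 1.75% rose and 2.64% changed. The members' median log2 change was 0.17 at 22 h and 0.09 at 8 h, against 0.01 and -0.01 over all genes. ELOVL7 went from 56.1, 61.5 and 69.6 CPM (7 DMSO libraries at 22 h) to 94.0, 104 and 115 CPM (10 R1881 libraries), 1.64-fold (log2 0.72 ± 0.05, adjusted p = 9.70e-19), and from 53.7, 60.8 and 65.6 CPM to 82.5, 89.3 and 91.9 CPM at 8 h, 1.48-fold (0.56 ± 0.04, adjusted p = 1.06e-15). Neither pair of groups overlapped. ACACA at 22 h went from 435, 470 and 499 CPM to 530, 582 and 625.3 CPM (1.24-fold, log2 0.31 ± 0.04, adjusted p = 5.94e-10) and ELOVL5 from 343, 391 and 398 CPM to 433, 454 and 492 CPM (1.22-fold, 0.29 ± 0.03, adjusted p = 1.05e-09), both without overlap.

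ELOVL2 rose by 0.29 ± 0.07 at 22 h with overlapping groups (adjusted p = 0.00130), a call lost with control replicates 6 and above (0.21, adjusted p = 0.377). At 8 h ACACA rose by 0.15 ± 0.03 (adjusted p = 0.00150) and ELOVL5 by 0.11 ± 0.03 (adjusted p = 0.0217), both with overlapping groups. With control replicates 1 to 5 or 6 and above these calls were lost, with adjusted p of 0.0665 and 0.150 for ACACA and of 0.661 and 0.182 for ELOVL5. The replicate block lost the ELOVL5 call as well (0.12, adjusted p = 0.0572). SCD, FADS2 and FADS1, the desaturases that rose most in VCaP, changed at 22 h by 0.04 ± 0.03, 0.01 ± 0.06 and -0.03 ± 0.03 (adjusted p = 0.508, 0.947 and 0.673). SCD lay between 2369 and 3023 CPM in every LAPC4 library and FADS2 between 836 and 1171 CPM. FASN ranged from 956 to 1939 CPM in DMSO and from 980 to 3194 CPM in R1881 at 22 h (0.45 ± 0.27, adjusted p = 0.321). With the GC slope as covariate it rose by 0.20 ± 0.05 (adjusted p = 0.00179), in a fit that called 22.4% of all genes. With the replicate block it rose by 0.57 ± 0.10 (adjusted p = 0.00125). The R1881 effect differed between 22 and 8 h for 1 of 10 members in LAPC4 (3.21% of all genes), ELOVL5, by 0.17 ± 0.05 (adjusted p = 0.0170). That call was lost with upper-quartile scaling (adjusted p = 0.143), without the filter on low counts (0.112) and with control replicates 1 to 5 (0.161) or 6 and above (0.311).

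**Figure D5:**
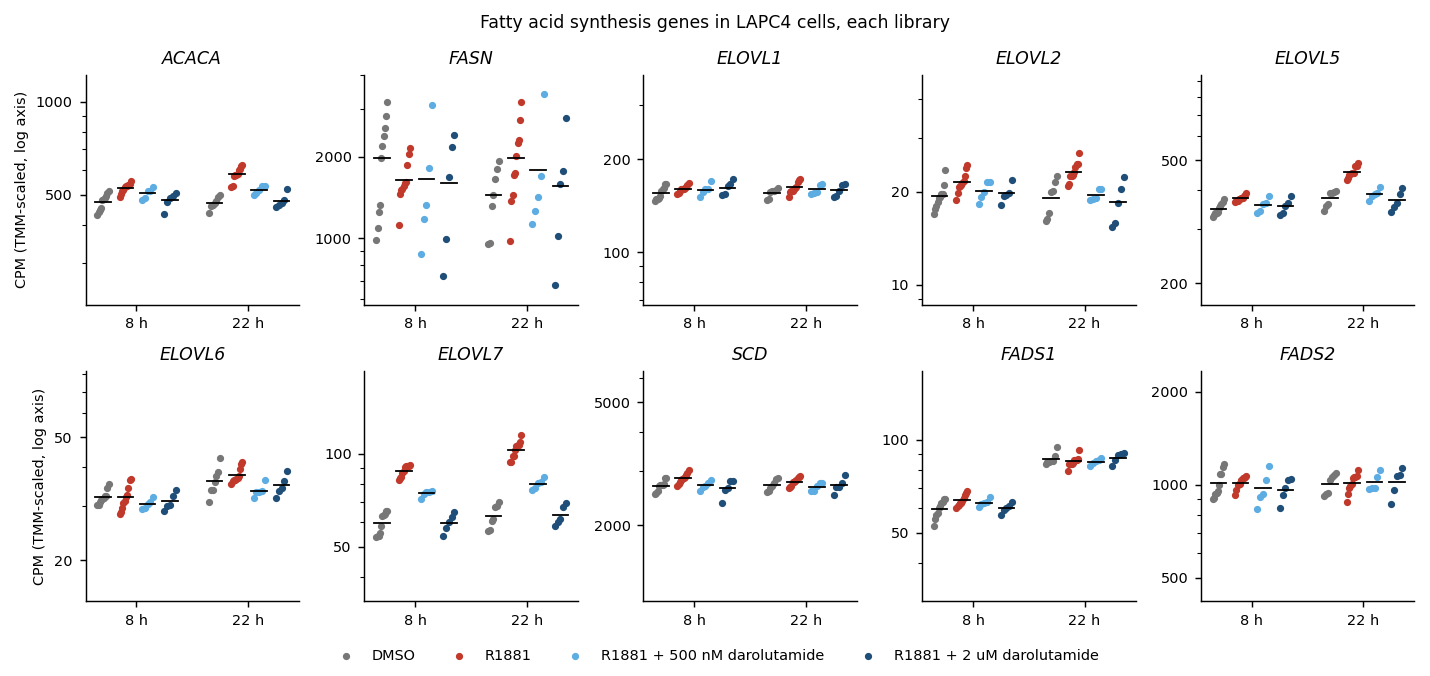
Levels of the 10 genes in LAPC4 in TMM-scaled CPM (vertical, log axis, a scale of its own in each panel) for 4 treatments at 8 and 22 h; each point is a library and each line a group mean. ELOVL7 steps up with R1881 and back with darolutamide at both times, FASN libraries spread widely within every group, and FADS1 is higher at 22 h than at 8 h in every treatment.

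Darolutamide at 2 µM lowered 4 of 10 members against R1881 at 22 h in LAPC4, where 5.47% of all genes fell and 10.5% changed: ELOVL7 by -0.70 ± 0.05 on the log2 scale (adjusted p = 3.45e-16), ELOVL2 by -0.33 ± 0.08, ELOVL5 by -0.31 ± 0.04 and ACACA by -0.29 ± 0.04. These were the 4 members that R1881 had raised, in a comparison that shares the R1881 libraries. ELOVL7 held 61.4, 69.2, 58.6, 67.4 and 60.3 CPM at 2 µM, all within the DMSO range, and 77.8, 81.3, 80.3, 84.4 and 76.6 CPM at 500 nM, between the controls without overlap. The reversal of its change was 98.1% ± 14.6 (SD, n = 5) at 2 µM and 50.8% ± 7.67 (n = 5) at 500 nM. ACACA was reversed by 93.2% ± 25.4 and 56.1% ± 14.4, and ELOVL5 by 108% ± 35.6 and 83.2% ± 18.5. With the GC slope as covariate FASN also passed, at -0.30 ± 0.06 (adjusted p = 1.97e-05), in a fit that called 20.1% of all genes. It passed with the replicate block too, at -0.39 ± 0.11 (adjusted p = 0.0266). With 500 nM 4 of 10 were lower at 22 h (5.89% of all genes changed in either direction). Of these the ELOVL2 call (-0.25, adjusted p = 0.0283) was lost without 500 nM replicate 1, 3 or 5 (adjusted p from 0.0722 to 0.0859). It was also lost with upper-quartile scaling (0.0539), without the filter on low counts (0.0987) and with control replicates 6 and above (0.093). The ACACA call (-0.17, adjusted p = 0.00189) was lost with control replicates 6 and above (-0.14, adjusted p = 0.0727).

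At 8 h ELOVL7 was the 1 member of 10 that differed from R1881 in the main fit, with 2 µM (1.54% of all genes changed and 1.08% fell) and with 500 nM (0.626%). The differences were -0.56 ± 0.05 and -0.24 ± 0.05 on the log2 scale. With 2 µM more members were called in some other fits. There were 3 with DESeq2, 4 with the GC slope as covariate, and 2 with control replicates 1 to 5 or with the compared groups only. The 500 nM call of ELOVL7 was lost with the replicate block (-0.28, adjusted p = 0.108). ELOVL7 was also the 1 member whose level differed between the doses, by -0.34 ± 0.06 at 22 h (0.258% of all genes, adjusted p = 0.000759) and by -0.32 ± 0.06 at 8 h (0.0275% of all genes, adjusted p = 0.00702). The 8 h call between doses was lost without 2 µM replicate 1 (adjusted p = 0.0552) or 5 (adjusted p = 0.105) and in a fit of the compared groups only (adjusted p = 0.171). Against DMSO, 0 of 10 members differed with 2 µM at 8 h (0.011% of all genes) or at 22 h (0.0165%) by edgeR, with 0 of 10 at an unadjusted p under 0.05 at either time and 0 of 10 by DESeq2. With 500 nM 1 of 10 differed at 8 h (0.187%) and 1 of 10 at 22 h (0.648%), ELOVL7 in both cases, by 0.32 ± 0.05 and 0.35 ± 0.05. The 8 h call of ELOVL7 against DMSO was lost with control replicates 1 to 5 (0.21, adjusted p = 0.112) and with the replicate block (0.21).

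The difference between the lines was tested in the joint fit. The R1881 effect differed between VCaP and LAPC4 for 9 of 10 members at 22 h (68.5% of all genes), all larger in VCaP, and for 7 of 10 at 8 h (58.5%), with 5 larger in VCaP. Of the 8 h calls, those of ELOVL6 (-0.20) and FASN (0.74) were lost with control replicates 1 to 5 (adjusted p = 0.341 and 0.194). FADS2 had the widest gap at 22 h, 2.86 ± 0.07 on the log2 scale (adjusted p = 9.96e-63), ahead of SCD at 2.60 ± 0.05. For ELOVL2 the gap at 22 h was -0.01 ± 0.08 (adjusted p = 0.931). The effect of 2 µM darolutamide added to R1881 differed for 7 of 10 members at 22 h (58.9%) and for 5 of 10 at 8 h (39.9%). At 22 h all 7 had the lower log2 value in VCaP, a gap not scaled to the R1881 rise, which was larger there. As a share of that rise, mean reversal at 22 h was lower in VCaP for ELOVL7 (63.6% against 98.1% in LAPC4) and ACACA (48.9% against 93.2%). The same held for ELOVL5 (37.8% against 108%) and, with wide spreads, ELOVL2 (57.0% against 116%). The other members were not called for R1881 in LAPC4 at 22 h and have no such share there. For ELOVL7, which rose in both lines at both times, the gap in the R1881 effect was 1.23 ± 0.07 at 8 h and 1.04 ± 0.07 at 22 h. ACACA and ELOVL5 were also called as rises in both lines at both times. Their 8 h calls in LAPC4 were lost with either subset of control replicates.

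Some members differed between the times without any androgen. Between 8 and 22 h of DMSO, 5 of 10 members differed in VCaP (29.8% of all genes) and 3 of 10 in LAPC4 (22.1%), the latter near the share over all genes. The VCaP count was 3 of 10 with either subset of control replicates. Whether time in culture or the origin of the libraries lay behind these differences was not tested. In VCaP ACACA rose by 0.45 ± 0.03 on the log2 scale (adjusted p = 1.45e-17) and SCD by 0.40 ± 0.04 (adjusted p = 6.90e-14), and the libraries of the times did not overlap for either. In LAPC4 FADS1 rose by 0.54 ± 0.03 (adjusted p = 1.45e-19), from 52.8, 60.7 and 64.4 CPM to 83.9, 85.5 and 95.1 CPM, also without overlap. The other calls were of 0.18 or less in size: FADS1, ELOVL2 and ELOVL7 in VCaP (0.11, 0.13 and -0.13) and ELOVL6 and ELOVL5 in LAPC4 (0.18 and 0.11). Each of these was lost with control replicates 1 to 5 or with control replicates 6 and above.

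Other genes of the pathway were read from a list of 42, with 40 passing the filter in VCaP and 37 in LAPC4. In VCaP at 22 h of R1881 26 of the 40 rose, 9 fell and 5 did not pass, with a median log2 change of 0.43, where 37.4% of all genes rose and the median over all genes was -0.03. Of the 8 genes listed for acetyl-CoA, malonyl-CoA and NADPH 7 rose and 1 fell (ACACB, the carboxylase of the mitochondrial surface that makes malonyl-CoA, named after its value was seen), and all 3 electron donors of the desaturases rose. Of the 6 genes of mitochondrial fatty acid synthesis 2 rose and 4 fell. INSIG1, which retains the SREBP precursors in the endoplasmic reticulum and is itself an SREBP target, rose most, by 3.27 ± 0.05 on the log2 scale (adjusted p = 4.16e-49). CBR4, a subunit of the ketoacyl reductase of the mitochondrial pathway, fell by 2.41 (SE 0.04, adjusted p = 6.32e-47). IDH1, which makes cytosolic NADPH, rose by 1.84 ± 0.04 (adjusted p = 5.97e-45). SREBF1, which encodes the SREBP of the fatty acid branch, rose by 2.06 ± 0.16 at 22 h and had changed by -0.07 ± 0.15 at 8 h (adjusted p = 0.695). SREBF2, that of the cholesterol branch, rose by 0.75 ± 0.05 at 22 h and had changed by 0.08 ± 0.05 at 8 h (adjusted p = 0.120). With 2 µM darolutamide at 22 h 21 of the 40 were lower than in R1881 (30.8% of all genes were) and 6 higher, INSIG1 by -1.57 ± 0.06 and SREBF1 by -1.03 ± 0.17. At 8 h of R1881 15 of the 40 rose and 11 fell, a share of risers near the 32.8% over all genes. In LAPC4 3 of 37 rose at 22 h, again near the share over all genes (6.83%), SCAP by 0.34 ± 0.08, CYB5B by 0.15 ± 0.02 and ACLY by 0.09 ± 0.03, 0 fell, and SREBF1 changed by 0.11 ± 0.17 (adjusted p = 0.781) and SREBF2 by 0.06 ± 0.06 (adjusted p = 0.582).

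For members with a log2 change of at least 1 at 22 h, all in VCaP, the genes with the most alike pattern were found as the smallest root mean square distance over 6 log2 differences (3 treatments at each of 2 times, against DMSO). For SCD these were RP11-283C24.1 (distance 0.0436) and its own copy SCDP1 (0.0588). ELOVL5 was nearest to CCND3 (0.0613) and MARS (0.0728), ACACA to SYNE2 (0.0937) and SLC35F6 (0.0995), ELOVL7 to MED12L (0.0956) and DNAJB5 (0.141), and FADS1 to SLC25A35 (0.102) and GALNT9 (0.106). For FASN (SDK1, 0.168), FADS2 (ARPC1B, 0.184) and ELOVL6 (SAPCD2P1, 0.228) the nearest gene was farther off, and the second nearest to FASN was FADS2 (0.254).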

How the data were processed

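Polyadenylated RNA was read in 112 libraries as single ends of 50 bases, and the authors deposited whole-number read counts per gene. Per the labels the submitters' processing notes name bcl2fastq 2.17, STAR, GRCh38, featureCounts of Subread and DESeq2; the annotation, strand and multimapping settings are not given in the sources used here. No value was normalised before deposit. The counts were tested in R 4.3.3 with edgeR 4.0.16 (quasi-likelihood test, TMM scaling, 8 groups of a line in 1 fit, Benjamini-Hochberg adjustment over all genes, threshold 0.05) after a filter that required 10 reads or more in 4 or more libraries of a line. That left 19266 genes in VCaP, 18204 in LAPC4 and 16578 in the joint fit for differences between lines. CPM were TMM-scaled within each line. Alternatives were DESeq2 1.42.0, upper-quartile scaling, other filters, fits on the compared groups, a GC covariate, a replicate block, subsets of the control replicates and leaving out each darolutamide library. The GC covariate was the slope of each library, and 84.4% of the genes tested in VCaP and 84.0% in LAPC4 had a GC value. The fits were tested on simulated data. No pair of libraries in a group agreed within sampling noise (lowest chi-square per gene 1.47). All 10 members were described; other pathway genes were read from a list, from which the 4 called genes with the largest log2 changes at 22 h of R1881 in each line, SREBF1 and SREBF2 were named. The members and lists were chosen with earlier results of these data known.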

Additional observations from a re-analysis of the deposited data

Results flagged for a closer look

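In 3 of the 160 groups of values tested (10 genes in 16 groups), a library stood apart from its group by Dixon's test, which chance does in about 1 in 20 groups. FASN was 179 CPM in replicate 1 of VCaP with 500 nM darolutamide at 8 h, against 303 to 335 CPM in the others. SCD was 332 CPM in replicate 10 of VCaP DMSO at 8 h, against 356 to 384 CPM. FADS1 was 95.1 CPM in replicate 6 of LAPC4 DMSO at 22 h, against 83.9 to 88.5 CPM.

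Effects that differed between times or lines by the test of the difference itself were flagged as well, all as log2 values. The R1881 effect in VCaP at 22 h minus that at 8 h was 2.87 for SCD, 2.73 for FADS2, 2.16 for FASN, 1.79 for FADS1, 1.62 for ELOVL6, 1.03 for ACACA, 0.53 for ELOVL5, 0.38 for ELOVL1 and -0.72 for ELOVL2. In LAPC4 it was 0.17 for ELOVL5.

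The R1881 effect in VCaP minus that in LAPC4 was, at 22 h, 2.86 for FADS2, 2.60 for SCD, 2.21 for FASN, 2.02 for FADS1, 1.39 for ELOVL6, 1.04 for ELOVL7, 0.97 for ACACA, 0.84 for ELOVL5 and 0.67 for ELOVL1. At 8 h it was 1.23 for ELOVL7, 0.82 for ELOVL2, 0.74 for FASN, 0.46 for ELOVL5, 0.29 for ELOVL1, -0.20 for ELOVL6 and -0.34 for SCD.

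The effect of 2 µM darolutamide added to R1881, VCaP minus LAPC4, was at 22 h -1.65 for FADS2, -1.11 for FASN, -1.07 for SCD, -0.91 for FADS1, -0.45 for ELOVL7, -0.37 for ACACA and -0.30 for ELOVL1. At 8 h it was -0.53 for ELOVL2, -0.52 for ELOVL7, -0.21 for ELOVL5, 0.28 for SCD and 0.28 for ACACA.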

How the results depend on the processing

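Of 3380 fold changes of members recomputed under alternatives, 3131 kept their side of the threshold with no called value changing sign, 85 lost and 153 gained a call, and 11 that were called in either fit changed sign. Another 206, called in neither fit, also changed sign. Of 1140 recomputed without a darolutamide library, 22 lost and 2 gained a call, and 72 changed sign, all of them called in neither fit. Counts of members called in VCaP moved by over 1.5 times as follows. With 2 µM against DMSO at 8 h the count was 8 (from 5) with the GC covariate, with that covariate and control replicates 1 to 5, and with a replicate block and that covariate. DMSO over time gave 3 in both subsets of the controls (replicates 1 to 5, or 6 and higher). The replicate block gave 3 for 500 nM against R1881 at 8 h, and the block with GC gave 5 for 2 µM against 500 nM at 8 h. In LAPC4 at 8 h, 2 µM against R1881 gave 3 with DESeq2, 4 with GC, 2 with the compared groups only, 2 with control replicates 1 to 5, 7 with GC and these, 5 with GC and control replicates 6 and above, and 7 with the block and GC. R1881 against DMSO gave 5 with GC, 1 with either subset of control replicates and 6 with the block and GC. For 500 nM against R1881 the count was 3 with GC, 0 with the replicate block, 2 and 5 with GC and control replicates 1 to 5 or 6 and above, and 2 with the block and GC. For 500 nM against DMSO it was 0 with the block, 0 with control replicates 1 to 5 and 3 with GC and these. For 2 µM against DMSO it was 2 and 1 with GC and either subset and 2 with the block and GC. Between doses it was 0 with the compared groups only, and 0 to 1 when leaving out a library. In LAPC4 at 22 h, 500 nM against R1881 gave 2 with control replicates 6 and above and 7 with the block and GC, and 2 µM against R1881 gave 7 with the latter. Between doses the count was 3 with GC and 2 with the block and GC, and 500 nM against DMSO gave 3 with GC, 2 and 3 with GC and either subset, and 2 with the block and GC. For 2 µM against DMSO it was 1 with the block and GC. DMSO over time gave 1 with control replicates 6 and above, also with GC, and 5 with GC and control replicates 1 to 5 or with the block and GC. The LAPC4 R1881 effect at 22 h minus 8 h gave 0 without the filter, with upper-quartile scaling and with either subset, 5 with GC, 5 with GC and control replicates 1 to 5, 2 with GC and 6 and above, and 5 with the block and GC. The 11 changed signs of called values were those of FASN with 2 µM against DMSO in VCaP at 8 h (0.21 with GC, 0.26 with GC and control replicates 1 to 5, 0.27 with the block and GC), FASN over time in VCaP DMSO (0.24, 0.31 and 0.27), FADS2 over time in LAPC4 DMSO (0.10 with GC and control replicates 1 to 5, 0.0714 with the block and GC), the FADS2 time difference of the R1881 effect in LAPC4 (-0.13 and -0.10 in the same 2 fits) and FASN with 2 µM against DMSO in LAPC4 at 22 h (-0.11 with the block and GC). The causes were not tested. Shares of reversal moved in 5 of 104 alternatives, and elongase shares in 72 of 80 when exon length was left out. The fits that join GC with another choice were chosen after seeing the data. Replicate numbers showed little pairing of the libraries on average. Same-numbered libraries had a mean correlation of deviations of -0.00511 in VCaP (33 of 149 pairs over 0.1) and 0.0549 in LAPC4 (57 of 161). For libraries with other numbers it was 0.000668 and -0.00717, and 6 of 55 and 10 of 57 libraries correlated best with their own number. A mean over all genes and groups cannot exclude that some groups were paired. The lowest read counts behind a member were 251 for ELOVL6 in VCaP and 253 for ELOVL2 in LAPC4, which limits how small a change in these can be detected.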
